A study of Mus musculus with 12 samples.

Results

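The genes Cebpa, Cebpb, Cebpd and Cebpg encode members of the CCAAT/enhancer-binding protein (C/EBP) family. The members were taken by name, and each was looked up in the gene column of the deposited clique tables of H3K27ac Hi-ChIP in mouse hepatocytes. All 4 were found at both ages, among 9595 protein-coding genes listed at either age. Cebpa and Cebpg are neighbours and were always listed in the same clique, so the 4 genes stand for 3 cliques at each age.

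C/EBP proteins are basic leucine zipper (bZIP) factors: they bind DNA as homodimers or heterodimers with one another and with other bZIP proteins. In liver, C/EBPα maintains the expression of metabolic and plasma protein genes in resting hepatocytes, and C/EBPβ and C/EBPδ are induced by cytokines in the acute phase response, with C/EBPβ also taking part in gluconeogenesis and liver regeneration. C/EBPγ lacks a strong activation domain and acts mainly as a dimer partner, for example of ATF4 in the stress response.

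Hi-ChIP joins DNA ends that lie close together in the nucleus and then selects fragments carrying H3K27ac, acetylated lysine 27 of histone H3, a mark of active promoters and enhancers. Hepatocytes came from male C57BL/6 mice without further treatment, young at 5 months and old at 25 months. Each age had 6 libraries, from 2 biological replicates with 3 batches each. The young mice were bought from a commercial breeder and the old mice came from the stock of the US National Institute on Aging, so age and source cannot be told apart. The authors deposited 1 network per age, which names no replicate, so every value below is a single value without replicate error, no p-value is given, and the depth is unknown. A node is a 5 kb bin, a clique is the authors' word for a set of connected nodes, and clique size is its number of nodes. The young network had 56928 nodes in 5401 cliques with a mean of 10.5 nodes, and the old network 40304 nodes in 5973 cliques with a mean of 6.75. The young cliques listed 6 of 8 hepatocyte markers and the old cliques 5, Alb and Cps1 at both ages. None of 8 Kupffer cell markers was listed at either age, with Clec4f, Vsig4 and Csf1r among those in no clique. Sinusoidal endothelial markers were listed 4 of 8 in young and 1 of 8 in old, Lyve1 with 25 and 3 nodes, while Stab2, Clec4g and Kdr were in no clique. Those listed in young only, Pecam1, Oit3 and Fcgr2b, still had old nodes in or within 2500 bp of them, in cliques of 2, 3 and 2 nodes. Stellate cell markers were listed 1 of 8 in young and 0 in old, cholangiocyte markers 2 and 1, and lymphocyte markers 1 and 1. The part of such cells in the results was not tested.

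The promoters of the 3 members that matched the RefSeq table by symbol are shown because the bin that holds each of them was a node of the member's clique at both ages, so these letters lie inside the bins described below. Each sequence is from RefSeq (GRCm38.p6, the assembly of mm10) and runs from 250 bases before to 50 bases after the annotated start on the strand of the gene. Capitals mark matches, on either strand, to any of 4 short motifs. TGACG is the core of the element bound by CREB and ATF factors. TATAAA is the usual form of the TATA element. CCAAT is the element bound by NF-Y. TTGCG is part of the element bound by C/EBP factors. The windows are chr7:35119043-35119342 on the plus strand for Cebpa, chr2:167688665-167688964 on the plus strand for Cebpb and chr7:35056517-35056816 on the minus strand for Cebpg.
Cebpa: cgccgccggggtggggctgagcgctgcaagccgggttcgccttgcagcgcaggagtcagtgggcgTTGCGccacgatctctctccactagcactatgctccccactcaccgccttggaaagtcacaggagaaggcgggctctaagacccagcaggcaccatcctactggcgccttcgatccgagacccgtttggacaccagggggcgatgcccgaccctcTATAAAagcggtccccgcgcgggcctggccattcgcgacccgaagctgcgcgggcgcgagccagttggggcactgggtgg
Cebpb: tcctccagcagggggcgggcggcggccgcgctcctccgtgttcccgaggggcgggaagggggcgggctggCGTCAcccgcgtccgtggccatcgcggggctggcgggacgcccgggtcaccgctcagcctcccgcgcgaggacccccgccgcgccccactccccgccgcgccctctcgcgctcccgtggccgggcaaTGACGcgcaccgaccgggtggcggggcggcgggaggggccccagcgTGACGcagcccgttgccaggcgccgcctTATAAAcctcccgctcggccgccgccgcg
Cebpg: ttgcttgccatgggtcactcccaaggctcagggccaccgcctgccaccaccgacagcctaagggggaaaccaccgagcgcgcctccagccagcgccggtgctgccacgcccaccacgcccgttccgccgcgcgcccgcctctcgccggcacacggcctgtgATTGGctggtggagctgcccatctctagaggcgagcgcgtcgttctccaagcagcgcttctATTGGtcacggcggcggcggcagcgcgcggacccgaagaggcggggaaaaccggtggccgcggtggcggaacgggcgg

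The 3 windows held different motifs. The Cebpa window had 1 TTGCG, at positions -185 to -181 from the start, and a TATAAA at -30 to -25. The Cebpb window had 3 matches to TGACG, at -180 to -176 on the opposite strand and at -53 to -49 and -7 to -3 on the strand of the gene, and a TATAAA at 22 to 27 after the start. The Cebpg window had 2 CCAAT boxes on the opposite strand, at -89 to -85 and -28 to -24, and none of the other motifs. Matches did not overlap. Of the 27025 promoter windows in the RefSeq table, 1 per gene, 21.0% held a TGACG and 14.2% a TATAAA, while 37.9% held a CCAAT and 17.5% a TTGCG. The longer C/EBP palindrome TTGCNNAA was in 10.8% of windows and in none of these 3. The windows were rich in G and C, with 67.3% in Cebpa, 80.7% in Cebpb and 71.7% in Cebpg, against a median of 52.7% over all windows. The motifs were chosen with the sequences in view.

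Cebpb had the largest clique of the members at both ages, Cebpa and Cebpg came next, and Cebpd was in a small one. In the young network the cliques had 84 nodes for Cebpb, 31 for Cebpa and Cebpg and 10 for Cebpd. In the old network they had 52, 25 and 3 nodes, so the order of the members was the same and every member's clique was smaller. By size, the Cebpb clique ranked 37 of 5401 in young and 47 of 5973 in old. The clique of Cebpa and Cebpg ranked 494 in young and 335 in old, a higher place in old although it had fewer nodes. The Cebpd clique ranked 1489 in young and 2155 in old. With no replicate spread, none of the steps in this order could be tested.

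The decrease differed in size among the 3 cliques. The old clique had 19.4% fewer nodes for Cebpa and Cebpg, 38.1% fewer for Cebpb and 70.0% fewer for Cebpd. On the scale log2((old nodes + 1)/(young nodes + 1)), the differences were -0.30 for Cebpa and Cebpg, -0.68 for Cebpb and -1.46 for Cebpd. Among the 6257 protein-coding genes listed at both ages 81.5% had a smaller clique in old, and their median was -0.63. Only Cebpd, 1 of the 4 members, was at least 2-fold smaller on this scale, where 35.7% of genes listed at both ages were. No member was at least 2-fold larger in old, against 3.77% of those genes. Of the genes listed at both ages, 67.9% had a lower value than Cebpa and Cebpg, 46.4% a lower value than Cebpb and 22.5% a lower value than Cebpd. Being listed at both ages was itself usual, as it held for 65.2% of the 9595 genes. Scaling each size to the mean clique of its age moved the median of these genes from -0.63 to -0.011, and then Cebpa and Cebpg were larger in old at 0.26, Cebpb was near the median at -0.043 and Cebpd was lower at -0.43. In these scaled values the 1 was added after the division, which pulls small cliques such as that of Cebpd toward no difference. Without it the Cebpd clique was 0.949 of the mean in young and 0.445 in old, a ratio of 0.469.

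**Figure D1:**
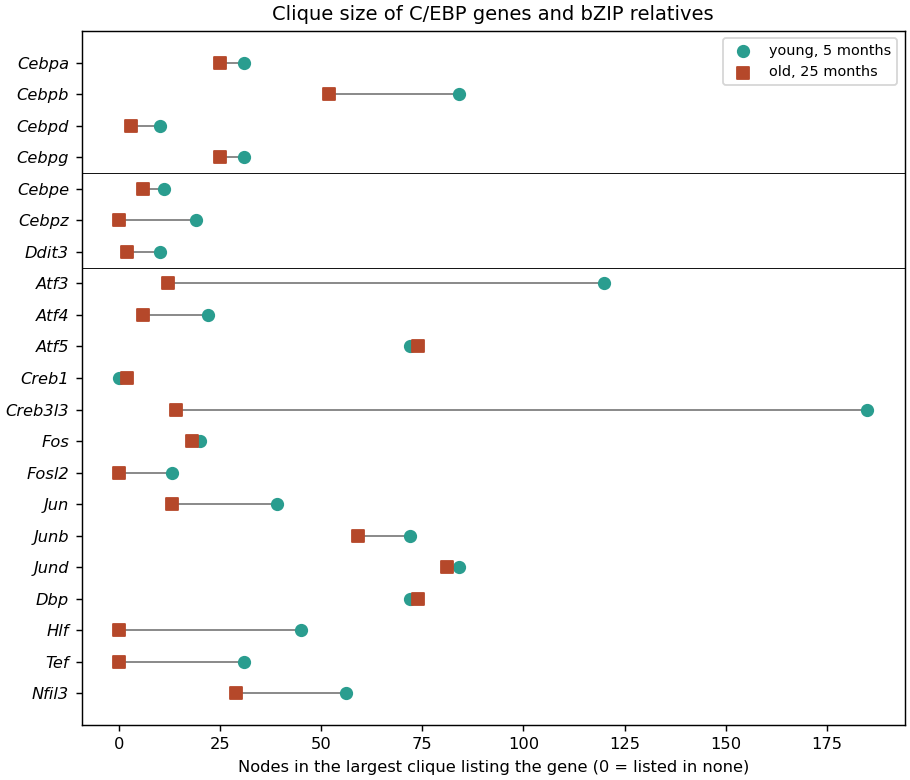
Number of nodes in the largest clique that lists each gene, in young (circles) and old (squares) hepatocytes, for the 4 C/EBP members, for the genes Cebpe, Cebpz and Ddit3, and for other bZIP genes listed at either age. Each point is 1 pooled network; Cebpb goes from 84 to 52 nodes, Cebpa and Cebpg from 31 to 25 and Cebpd from 10 to 3.

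Cebpa (chromosome 7, 35119293 to 35121928, plus strand) and Cebpg (chromosome 7, 35046422 to 35056566, minus strand) lay in a young clique from 35015001 to 35270000 and an old one from 35015001 to 35190000 in mm10. The young clique spanned 255 kb and its nodes covered 155 kb of it, and the old clique spanned 175 kb with 125 kb covered. The start of each gene was in a node of the shared clique at both ages, as were the bins over the body of Cebpa. Over Cebpg the clique had 3 bins in young and 2 in old, as the bin 71.8 kb from the Cebpa start had no old node. Of the 31 young bins, 25 (80.6%, 95% Wilson interval 63.7 to 90.8, counting error only, with neighbouring bins not independent) were nodes of the old network. Over all young bins the share was 55.6%, and in young cliques of 20 to 49 nodes it was 61.8%. Of the 25 bins, 24 were in the old clique that lists both genes and 1 was in an old clique of 2 nodes. Conversely 24 of the 25 old bins (96.0%) were in the young network, all of them in the young clique of these genes. Over all old bins this share was 78.5%. In old cliques of 20 to 49 nodes the median share was 91.1%, and 99 of 485 such cliques had a share at least as high as 96.0%. The Jaccard index of the clique pair, shared bins over bins in either, was 0.750. In this size class 46.9% of the 710 young cliques reached an index of at least 0.5 and 58 reached at least that of Cebpa.

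The bins on the 2 sides of the Cebpa start differed in how many stayed. On the side of higher coordinates, which runs from the gene toward Slc7a10, 13 of 14 young bins stayed in the old clique, including all 10 within 50 kb. The longest unbroken stretch of the clique, 70 kb in young and 75 kb in old, held these 13 bins and the bin of the Cebpa start, and in old also the next bin toward Slc7a10. On the side toward Cebpg, 11 of 17 young bins stayed, 5 had no old node and 1 moved to the clique of 2 nodes. The bin of the Cebpa start, whose centre lies on this side, is counted among those that stayed. The bins without an old node lay 11.8, 46.8, 51.8, 71.8 and 96.8 kb from the Cebpa start, so they were scattered among bins that stayed rather than forming 1 block. The young bin that did not stay on the side of higher coordinates lay apart from the others, 148.2 kb away at the genes Wdr88 and Gpatch1, and was absent from the old network. The single bin found only in the old clique, 68.2 kb from the Cebpa start, holds one end of Slc7a10, which encodes a neutral amino acid transporter. Slc7a10 was listed in the old clique and in no young clique, although bins of the young clique of 31 nodes reached within 2500 bp of the gene.

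Cebpb (chromosome 2, 167688915 to 167690432, plus strand) lay in a young clique from 167220001 to 168000000 and an old one from 167475001 to 167925000. The young clique spanned 780 kb with 420 kb covered by nodes, and the old one 450 kb with 260 kb covered. Of its 84 young bins, 70 (83.3%, 73.9 to 89.8) were nodes of the old network, against 67.1% of the bins of all young cliques of 50 or more nodes. Only 11 of the 200 young cliques of that size had a share at least as high. Those 70 bins were divided among 6 old cliques, where the median clique of this size shared bins with 3. The old Cebpb clique held 51 of them, 60.7% of the young bins (50.0 to 70.5), and it had 1 bin that the young network lacked. Another 19 young bins were placed in other old cliques and 14 were absent. The Jaccard index was 0.600, where 48% of young cliques of 50 or more nodes reached 0.5 and 54 of the 200 reached at least 0.600.

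Bins of the Cebpb clique near the gene mostly stayed together and distant ones mostly did not. Within 200 kb of the start, 46 of 52 young bins were in the old Cebpb clique. At 200 to 500 kb 5 of 32 were. On the side of lower coordinates all 20 bins beyond 200 kb had left the clique: 16 were in other old cliques and 4 had no old node. Of the 19 bins placed elsewhere, 14 were in an old clique of 18 nodes that lists Ptgis, B4galt5 and Slc9a8. On the other side the 20 young bins from 100 to 200 kb all stayed, over a region with no protein-coding gene between Cebpb and Ptpn1. Beyond 200 kb on that side 5 of 12 young bins stayed, 1 was in another old clique and 6 had no old node. The longest unbroken stretch of nodes measured 160 kb in the young clique and 120 kb in the old one.

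Over all genes the share of bins that stayed fell with distance. For Cebpb this share was highest at 100 to 200 kb and lowest beyond 200 kb. Among the 1832 genes listed at both ages in young cliques of 50 or more nodes, the share of young bins found in the old clique of the same gene was 66.8% within 50 kb, 58.2% at 50 to 100 kb, 51.3% at 100 to 200 kb and 36.1% at 200 to 500 kb. For Cebpb the shares were 89.5%, 72.7%, 95.5% and 15.6%. The last of these was 0% on the side of lower coordinates and 41.7% on the side of higher coordinates. For Cebpa they were 87.5% within 50 kb and 69.2% at 50 to 100 kb, where the 2277 genes in young cliques of 20 to 49 nodes had 65.3% and 55.5%. At 100 to 200 kb 1 of 2 Cebpa bins stayed, against 42.9%. For Cebpd they were 40% within 50 kb, 2 of 5 bins, and 25.0% at 200 to 500 kb, 1 of 4, where the 1553 genes in young cliques of 5 to 19 nodes had 56.6% and 23.3%. The 1 Cebpd bin at 100 to 200 kb did not stay, against 30.1% that did. Genes that share a clique count its bins more than once in these figures, so they describe the networks and were not tested.

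**Figure D2:**
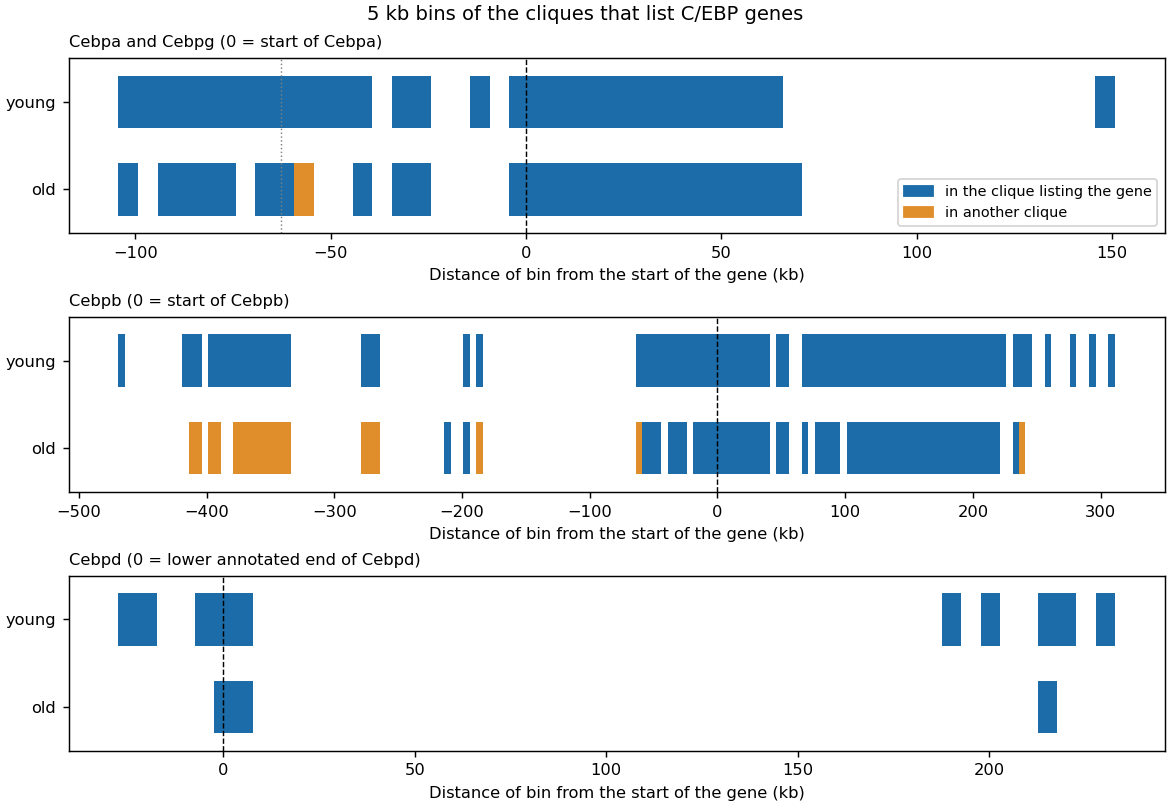
Each block is a 5 kb bin of the young or old clique that lists the gene, placed by distance in kb from the start of Cebpa, Cebpb or Cebpd (dashed line; the dotted line marks the start of Cebpg), in blue where it is in the clique listing the gene and in orange where it is in another clique of that age. At Cebpb all 20 young bins beyond 200 kb on the left are orange or empty in the old row, which has 1 blue bin of its own at 211.4 kb, and at Cebpd the old row keeps 3 of 10 bins.

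Cebpd (chromosome 16, 15887286 to 15889545) lay in a young clique of 10 bins from 15860001 to 16120000 and an old clique of 3 bins from 15885001 to 16105000. Of the 10 young bins 3 (30.0%, 10.8 to 60.3) were in the old network, all in the old Cebpd clique, against 50.1% of the bins of young cliques of 5 to 19 nodes. Of the 1285 young cliques of that size 974 had a share at least as high, and the Jaccard index of 0.300 was near the class median of 0.313, with 23% of these cliques at 0.5 or more. The clique had 2 separate parts at both ages. The near part was 5 young bins from 24.8 kb below the gene to 5.21 kb above its lower end, of which the bin of the gene and the next one remained in old. The far part was 5 young bins 190.2 to 230.2 kb away, of which the bin at 215.2 kb remained. The old clique of the gene thus still held 1 bin more than 200 kb away, where the young one held 4. Being in 1 clique does not show that this bin and the bin of the gene are linked directly. The far bins lie within Spidr (chromosome 16, 15889224 to 16146851), which encodes a scaffold protein of DNA repair and holds 7 of the 10 young bins, yet was itself listed in no clique at either age. With cliques this small the interval is wide, and counting a bin within 5 kb as present gave 50.0%.

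**Figure D3:**
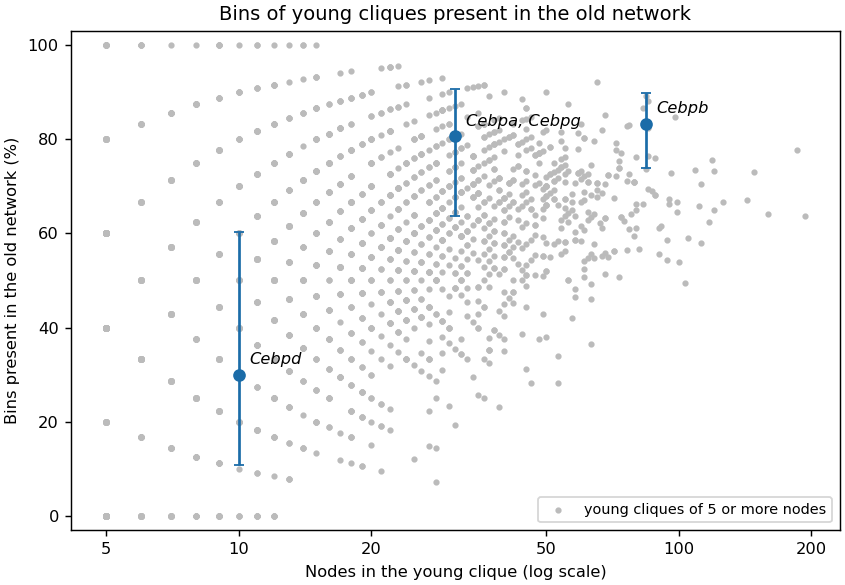
Share of the bins of each young clique of 5 or more nodes that were present in the old network (%), against the number of nodes of the young clique (log scale). Grey points are cliques, and blue points are the cliques of the members with 95% Wilson intervals; Cebpb is at 83.3%, Cebpa and Cebpg at 80.6% and Cebpd at 30.0%.

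Most names listed beside the members in young were listed with them in old as well. The same share was not computed over all cliques, so how usual this is cannot be told. The clique of Cebpa and Cebpg listed 9 names at each age and shared 8, which was 88.9% of each list. Besides the members these were RNA genes and gene models such as the lncRNA genes Gm35611 and Gm35665, and Gm45095, which overlaps Cebpg. Slc7a10 was the one name added in old and Gm45096 the one lost. The Cebpb clique listed 17 names in young and 13 in old, and all 13 were in the young list (76.5% of it). Both lists held Tmem189, Ube2v1, Rnf114 and Spata2, of which Ube2v1 and Rnf114 serve ubiquitin conjugation, together with the lncRNA gene A530013C23Rik, which lies 1.84 kb from the Cebpb start. The 4 names no longer listed with Cebpb lay at the ends of the young clique. B4galt5, which encodes a galactosyltransferase of glycolipid synthesis, and Slc9a8, a sodium and proton exchanger gene, were listed with Gm11473 in the old clique of 18 nodes. Slc9a8 was nevertheless still touched by the old Cebpb clique of 52 nodes, whose 1 bin without a young node lies at one end of this gene. No old clique listed Ptpn1, which encodes the phosphatase PTP1B that acts on the insulin receptor, and the largest old clique with a node in or within 2500 bp of this gene had 2 nodes. The Cebpd clique listed Mzt2, a gene of the gamma-tubulin complex, in young only, and no old node lay in or within 2500 bp of it, while the pseudogene Gm18334 within Spidr was listed at both ages.

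Around the members, other cliques did not all shrink. All nodes within 500 kb were also counted, those of the member cliques included. Around the Cebpa start there were 61 young and 56 old nodes, a ratio of 0.918, and near Cebpb 121 and 107, a ratio of 0.884. Near Cebpd there were 14 and 9, a ratio of 0.643. The whole networks had 56928 young and 40304 old nodes. The clique next to that of Cebpa, which lists Gpatch1, Rhpn2, Faap24 and Cep89, had 15 nodes in young and 19 in old with 14 shared. Toward higher coordinates from Cebpb, the clique with Pard6b, Adnp and Dpm1 had 22 nodes in young, and its shared bins lay in old cliques of 16, 4 and 2 nodes. Snai1, a transcription factor gene between the parts of the young Cebpb clique, was listed only in old, in a clique of 6 nodes.

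The other genes with C/EBP in their name, and Ddit3, had smaller cliques in old as well. Cebpe, a C/EBP gene known for its role in granulocytes, was in cliques of 11 and 6 nodes. Ddit3, which encodes CHOP, a stress-induced C/EBP relative that dimerises with the others, was in cliques of 10 and 2 nodes. Cebpz, whose product is named for CCAAT binding but is not a bZIP protein, had a young clique of 19 nodes, and no old node lay in or near it. Of the 2 listed at both ages, Ddit3 was at least 2-fold smaller. Of 17 other bZIP genes 14 were listed at either age and 10 at both. Among those 10, 4 were at least 2-fold smaller in old and 0 at least 2-fold larger, with a median of -0.60, against 35.7%, 3.77% and -0.63 for all genes listed at both ages. The largest absolute values were those of Hlf, Tef, Fosl2 and Creb3l3. Creb3l3, a fasting-response factor of liver, was in cliques of 185 and 14 nodes. The other 3 were listed in young only, with 45 nodes for Hlf, 31 for Tef and 13 for Fosl2, although old nodes of cliques with 24, 27 and 4 nodes touched these genes. Atf4, the stress-response partner of C/EBPγ, was in cliques of 22 and 6 nodes. Atf5 and Dbp shared a clique of 72 nodes in young and one of 74 in old. These last 3 genes were chosen after their values were seen.

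Genes that act upstream of the C/EBP factors were mostly in smaller cliques in old, 15 of 16, as were 7533 of all 9595 genes. Of 19 such genes 16 were listed at either age and 11 at both. Of those 11, 6 were at least 2-fold smaller and 0 at least 2-fold larger, with a median of -1.40, where 35.7% and 3.77% of all genes listed at both ages were and the median was -0.63. Another 4 were listed in young only and Socs3, the feedback inhibitor of cytokine signalling, in old only with 3 nodes. Mapk3, the gene of the kinase ERK1, was in cliques of 63 and 2 nodes. Rps6ka1, a kinase gene of the same cascade, had a young clique of 29 nodes, and Il6ra, encoding the interleukin-6 receptor, one of 11. The old gene column held neither, while old nodes of cliques with 22 and 9 nodes touched Rps6ka1 and Il6ra. Il6st, the shared signalling receptor of the interleukin-6 family, was in cliques of 68 and 13 nodes, and Stat3, its transcription factor, in cliques of 60 and 18. Trib1, whose product directs C/EBPα to degradation, was in cliques of 117 and 78. Il6st, Stat3 and Trib1 were chosen after their values were seen. Scaled to the mean clique of each age, 11 of the 16 genes were smaller in old and 5 larger, where 5622 of all 9595 genes were smaller.

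Known target genes of C/EBP factors were described in 2 groups, metabolic and acute phase. Of 13 listed metabolic targets 12 were listed at both ages, 4 of them at least 2-fold smaller in old and 0 larger, with a median of -0.60. That share is near the 35.7% of all genes listed at both ages, whose median was -0.63. Pparg, a nuclear receptor gene of lipid storage, was in cliques of 29 and 13 nodes, and Adh1, an alcohol dehydrogenase gene, was listed in young only with 50 nodes, although an old clique of 38 nodes touched it. Gys2 and Tat, enzymes of glycogen synthesis and tyrosine breakdown, were in cliques of 30 and 2 and of 41 and 12 nodes. All 12 listed acute phase targets were listed at both ages, with 3 at least 2-fold smaller in old, 1 at least 2-fold larger and a median of -0.16, against 35.7% smaller and 3.77% larger over all genes listed at both ages. Hp, encoding haptoglobin, was in cliques of 41 and 9 nodes and Hpx, encoding hemopexin, in cliques of 23 and 11. Crp was in cliques of 22 and 3, and the complement gene C3, in cliques of 30 and 116, was the one at least 2-fold larger in old. Orm1 and Orm2, genes of acid glycoproteins of plasma, were also in a larger clique in old, with 36 and 43 nodes. These Orm genes share a clique, as do the 3 Saa genes and both fibrinogen genes, so these 12 genes are not 12 separate values. Scaled to the mean clique of each age, 7 of the 13 metabolic targets were larger in old, where 3973 of all 9595 genes were. Of the 12 acute phase targets, all listed at both ages, 9 were larger and 3 smaller on this scale. Of the 6257 genes listed at both ages, 3189 were smaller.

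**Figure D4:**
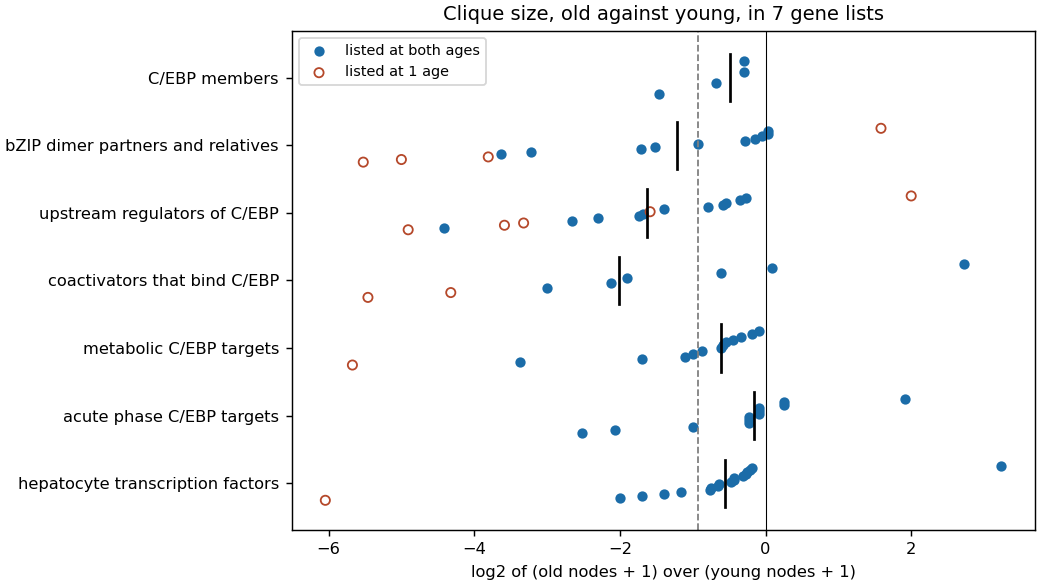
The log2 ratio of clique size, old over young with 1 added to each, for the genes of 7 lists. Filled points are genes listed at both ages, open points genes listed at 1 age, where the value depends on the added 1 and is no fold; bars are the list medians over both kinds and the dashed line is the median of all 9595 genes, -0.93. The members lie between -1.46 and -0.30.

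Among the genes of these lists, those nearest to each member in clique size at both ages were found. The measure was the distance in log2(nodes + 1) over the 2 networks. For Cebpa and Cebpg they included Gata4 with 35 and 25 nodes (distance 0.170) and Kat2b with 34 and 22 (0.219). For Cebpb they were Junb with 72 and 59 nodes (0.283), Ppara with 65 and 54 (0.369) and Apoa1 with 83 and 68 (0.381). For Cebpd they were Tbx3 with 12 and 3 nodes (0.241), Ddit3 with 10 and 2 (0.415) and Ep300 with 14 and 3 (0.447). Both networks listed 17 of 18 transcription factor genes of hepatocytes, with 4 at least 2-fold smaller in old, 1 at least 2-fold larger and a median of -0.47. Over all genes listed at both ages, 35.7% were at least 2-fold smaller, 3.77% at least 2-fold larger and the median was -0.63. The largest absolute values there were those of Hnf4a (listed in young only, with an old clique of 25 nodes touching it), Foxa3 (the one with the larger clique), Hhex and Tbx3.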

How the data were processed

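H3K27ac Hi-ChIP libraries (12 in all, 6 per age) were made from hepatocytes pelleted at low speed after collagenase perfusion, per the labels' protocols. Bowtie2, HiC-Pro and the builds mm10 and GRCm38 are named in the submitters' processing notes. How loops were called, cliques formed and genes attached is not given in the sources used. The deposited files give node positions, and the number of nodes, gene names and node names of each clique.

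Scripts in Python 3.11.15 with pandas 2.3.3 took the largest clique listing each gene, added a pseudocount of 1 and matched nodes by identical 5 kb bin. Functions were tested on simulated data. Of 16197 names, 9604 matched a RefSeq protein-coding gene. A gene span includes 2500 bp on either side. Bin distances run from bin centre to the start of the gene, or to its lower coordinate where the table used gives no strand (Cebpd) and over all genes. Wilson 95% intervals (scipy 1.17.1) cover counting error only. The design planned no test, as each age is 1 network.

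The members and lists were chosen with earlier results of these data known. Named are the members, genes co-listed with them, up to 4 genes per list with the largest absolute log2 value and up to 3 list genes nearest each member. Some genes that this rule names are not reported here. Alternatives were pseudocounts of 0.5 and 5, sizes divided by the mean or total of the age, summed cliques, assignment by gene span, at least 3 nodes, and a 5 kb tolerance.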

Additional observations from a re-analysis of the deposited data

How the results depend on the processing

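No paired analysis was possible because each age is 1 network that names no replicate, and no replicate could be left out for the same reason. The direction for Cebpd was lower in old under all 7 alternatives. For Cebpa and Cebpg the direction depended on scaling: their log2 value of -0.30 became 0.26 when scaled to the mean clique of each age and 0.19 when scaled to its number of nodes. The value for Cebpb, -0.68, became -0.043 and -0.19 under those scalings. The count of members at least 2-fold smaller in old was 1, and was 2 with a fold of 1.5 and 0 when scaled to the mean clique. That 0 depends on the 1 added after scaling. With nothing added, the ratio of Cebpd sizes over the mean was 0.469, and its log2 value scaled to the number of nodes was -1.24. Cebpd was at -0.91 with a pseudocount of 5. Counting a bin within 5 kb as present raised the share of young bins present in old to 93.5% for Cebpa and Cebpg and 94.0% for Cebpb. Counting only the old clique that lists Cebpb, an alternative chosen after seeing the data, gave 60.7%. Of 48 alternatives 40 stayed within the counting interval of the value or 1.5 times the count. These 40 include the alternatives that returned the main value unchanged and the changes of direction of Cebpa and Cebpg, whose shared clique is counted for each gene. The count therefore does not measure how stable the directions are. Genes in young cliques of 5 to 19, 20 to 49 and 50 or more nodes, also added after seeing the data, were at least 2-fold smaller in old, or in no old clique, in 56.5%, 49.7% and 54.8%, against 48.6% of all 9595 genes. Depth is unknown, so a bin absent from the old network was not detected there rather than shown to lack contacts.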

Other observations

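Coactivators that bind C/EBP factors were in smaller cliques in old in 6 of 8 genes and in larger ones in 2, where 7533 of all 9595 genes were in smaller ones. Carm1, an arginine methyltransferase gene, and Smarca2, a remodeller ATPase gene, were listed in young only, with 43 and 19 nodes, although an old clique of 13 nodes touched Smarca2. Med23, a Mediator subunit gene, was in cliques of 23 and 2 nodes, and 8 nodes in old by gene span. The acetyltransferase genes Ep300 and Kat2b were in cliques of 14 and 3 and of 34 and 22 nodes. Med1, another Mediator subunit gene, had the opposite order, with 7 nodes in young and 52 in old. Of the 6 genes listed at both ages 3 were at least 2-fold smaller in old and 1 at least 2-fold larger, with a median of -1.26, against 35.7%, 3.77% and -0.63 for all genes listed at both ages. Scaled to the mean clique of each age, 5 of the 8 were smaller and 3 larger, where 5622 of all 9595 genes were smaller.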
